A study of Mus musculus with 13 samples.

Results

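The neuropeptide genes of the cortex described here are Sst, Vip, Npy, Cck, Tac1, Tac2, Crh, Crhbp, Cort and Nts, 10 of the 17562 genes in the deposited tables. They were taken by name, with the opioid peptides left out. The measurements are bulk RNA-seq of cortex in 13 males, all 18 months old, of 3 genotypes. There were 5 wild-type mice (Grn+/+), 4 mice with a single working copy of the progranulin gene Grn (Grn+/-) and 4 mice labelled as lacking mouse Grn and carrying a human GRN transgene (Grn-/-; GRNtg), called humanized below. Grn encodes progranulin, a secreted and lysosomal protein whose partial loss causes frontotemporal dementia in people. The labels do not name the promoter that drives the transgene. Values per mouse were not analysed here, since the tables hold comparisons between genotypes and a mean over all libraries.

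Neuropeptides are cut from larger precursor proteins, packed into dense-core vesicles and released mostly during strong firing, and they act on G protein-coupled receptors. In the cortex most of them are made by GABAergic interneurons and mark their classes. Sst (somatostatin) and Cort (cortistatin) encode related inhibitory peptides of somatostatin interneurons, and Crhbp encodes a protein that binds and holds back the stress peptide encoded by Crh. Vip, and in mice often Tac2 and Crh as well, is made by interneurons that inhibit other interneurons. Npy is made by several interneuron types, Cck by both interneurons and pyramidal cells, Tac1 (substance P) by subsets of interneurons and, abundantly, by neurons of the neighbouring striatum, and Nts (neurotensin) by few cortical cells.

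Several of these genes are textbook targets of the activity-dependent factor CREB, which binds the cAMP response element, and the stretches that hold this element are shown because other activity-induced genes fell in the same mice. RefSeq promoters (GRCm38.p6, 250 bases before to 50 after the start) were at hand for 9 of the 10 genes. The 5-base core TGACG, on either strand (CGTCA on the other), lay in 7 of these 9 promoters, and in 27.7% of the 16402 promoters of genes in the tables. The whole element TGACGTCA, which contains the core on both strands, lay in 1, that of Sst, and in 2.69% of the 16402. The promoters of Npy and Tac2 held neither. Each line gives 30 bases, 5′ to 3′ on the gene's strand, with the match in capitals.
Sst: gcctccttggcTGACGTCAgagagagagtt
Vip: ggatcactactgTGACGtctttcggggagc
Cck: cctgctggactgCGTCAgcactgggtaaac
Tac1: gctctacaggctCGTCAcgcctgagataaa
Crhbp: gagctggaccctCGTCAttgccacgcattt
Cort: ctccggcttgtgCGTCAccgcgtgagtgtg
Nts: attagggaagatCGTCActttccatcaagg
The Sst stretch lies at chr16:23890874-23890903 on the minus strand, and its element begins 48 bases before the RefSeq start. Those of Vip (chr10:5639127-5639156, plus strand), Cck (chr9:121495724-121495753, minus) and Tac1 (chr6:7555006-7555035, plus) begin 79, 47 and 43 bases before it. Those of Crhbp (chr13:95444878-95444907, minus), Cort (chr4:149126764-149126793, minus) and Nts (chr10:102490567-102490596, minus) begin 64, 18 and 166 bases before it. The GENCODE M21 annotation places the stretches of Sst, Tac1 and Crhbp inside the first part of the transcript, since its starts differ from those of RefSeq. Tac1 held another core 197 bases before its RefSeq start. A match of letters is a description and not evidence of binding.

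Sst and Cck were among the most abundant transcripts of the cortex per length, and Nts was rare. The level used here is the authors' mean normalized count over all libraries, divided by the length of the gene's exons in kilobases. Sst had 5698 per kb and ranked 58 of 16846 genes with a length. Cck, whose peptide is the most abundant of the cortex by textbook accounts, had 4350 per kb and ranked 92. Npy had 1880 per kb, which placed it at percentile 98.0 of all genes. A gap of 7.73 times separated Npy from the next gene, Crhbp, at 243 per kb. Vip (182 per kb), Cort (142 per kb), Tac2 (111 per kb) and Crh (89.1 per kb) followed, and from Crhbp down to Crh no gene exceeded the next below it by more than 1.66 times.
Tac1 had 53.8 per kb. Nts had 11.6 per kb, from a mean normalized count of 14.4, and was 493 times below Sst.

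With the longest transcript as the length, Cck (7105 per kb) stood above Sst (5698 per kb), Tac2 above Cort, and Tac1 above Crh, so the order within these pairs is not settled. No exon of the 10 genes overlapped an exon of another annotated gene on either strand. Markers of cortex were abundant, and some genes listed as markers of adjacent tissue were present. Slc17a7, the vesicular glutamate transporter of cortical excitatory neurons, had 6694 per kb, Gad1, the GABA-synthesizing enzyme, 838 per kb, and Tbr1, a cortical transcription factor, 399.9 per kb, while the 10 listed markers of hypothalamus and amygdala reached at most 13.5 per kb. The highest striatal, hippocampal and thalamic markers, Ppp1r1b, Wfs1 and Slc17a6, had 893, 795 and 70.3 per kb. The medians of these lists were 71.7, 26.9 and 23.0 per kb. Whether such tissue was in the dissection was not tested.

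**Figure D1:**
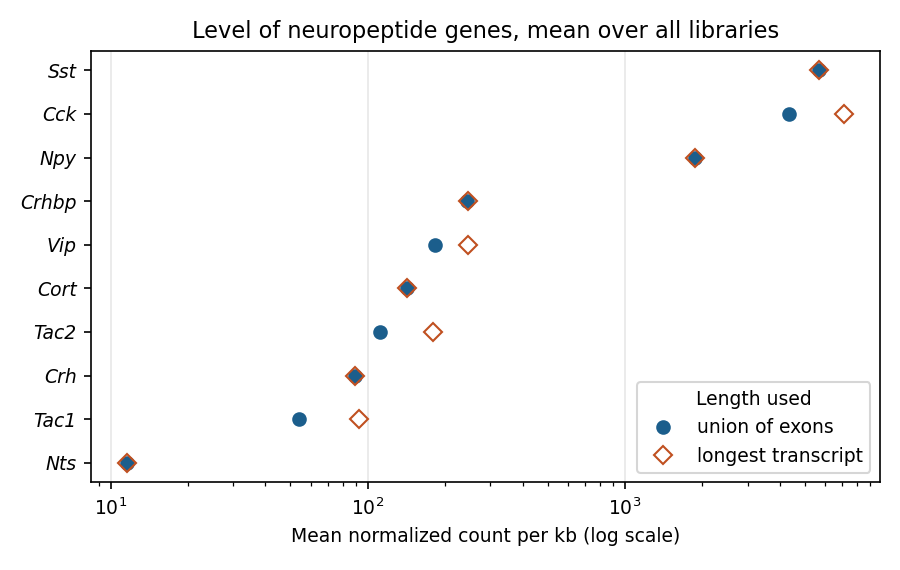
Mean normalized count per kilobase (log axis) of the 10 neuropeptide genes over all libraries, by 2 definitions of gene length. Sst, Cck and Npy lie at 1880 per kb or above, the other genes at or below 246 per kb, and Nts lowest at 11.6 per kb.

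Mouse Grn was lower in both mutant groups. In the authors' deposited tables its log2 fold change was -0.65 ± 0.077 (SE) in Grn+/- and -2.02 ± 0.081 in humanized mice against wild type, or 63.6% and 24.7% of the wild-type level. In the mice labelled Grn-/-; GRNtg part of the Grn signal thus remained, with a 95% interval of 22.1% to 27.6% of wild type. Whether shrinkage of the fold change or reads of the human transgene enter this value was not tested.

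Grn+/- mice set against wild type show the neuropeptide genes with 1 working mouse Grn allele. None of the neuropeptide genes passed. A gene counted as called where the authors' adjusted p was under 0.05, and 0 of the 9 listed members were called, against 6.80% of all 13482 genes. At an unadjusted p under 0.05 the count was also 0 of 9, against 20.2% of all genes. Their levels in Grn+/- lay between 93.1% and 109.6% of wild type, and 7 of 9 fold changes were positive, with a median log2 fold change of 0.04 against 0.01 over all genes. Nts is not listed in this table, whose lowest mean normalized count is 24.7. Subtraction of its fold changes in the other tables, which come from the same fit, gives 0.05 without an error. In bulk tissue, fewer cells of a type and less RNA per cell cannot be told apart.

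Sst was at 101% of the wild-type level, or 0.01 ± 0.097 (SE) on the log2 scale, with a 95% interval of -0.18 to 0.20 in the authors' deposited table (adjusted p = 0.977). Centring on the median of all genes turned its sign, at -0.00015. Cort was at 0.04 ± 0.124 (adjusted p = 0.892) and Crhbp at 0.03 ± 0.110 (adjusted p = 0.924) by the authors' deposited table. Of the genes of Vip interneurons, Vip itself had the largest value of the 9, 0.13 ± 0.111 (interval -0.08 to 0.35, adjusted p = 0.539) in the authors' deposited table. Tac2, which encodes neurokinin B, was at 0.11 ± 0.116 (adjusted p = 0.651) and Crh at -0.05 ± 0.137 (adjusted p = 0.884) by the authors' deposited table.
Npy (0.05 ± 0.108, adjusted p = 0.849), Cck (0.08 ± 0.115, adjusted p = 0.765) and Tac1 (-0.10 ± 0.137, adjusted p = 0.734) completed the authors' deposited table. Every one of these 9 intervals included 0.

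The comparison of the humanized mice with wild type takes in both the change in mouse Grn and the human transgene. No group carried the transgene without the change in mouse Grn or lacked both mouse alleles without it, so these cannot be told apart. Again 0 of 10 members were called, against 4.87% of all 14961 genes. At an unadjusted p under 0.05, 3 of 10 (Nts, Sst and Tac2) were higher and 0 lower, against 20.5% of all genes in either direction. The levels ran from 86.9% of wild type for Crh to 118% for Tac2. The median log2 fold change of the members was 0.17, against 0.01 over all genes, and 7 of 10 were positive, against 51.3% of all genes.

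In the humanized mice Sst, Cort and Crhbp had positive values, while Npy, which many somatostatin interneurons also make, had a negative one. Sst was at 115% of wild type, or 0.20 ± 0.097 on the log2 scale (interval 0.01 to 0.39, p = 0.0415, adjusted p = 0.222) in the authors' deposited table. Cort was at 0.21 ± 0.124 (adjusted p = 0.320) and Crhbp at 0.19 ± 0.109 (adjusted p = 0.314) by the authors' deposited table. The genes of Vip interneurons did not share a sign. Tac2 was at 0.23 ± 0.116 (interval 0.01 to 0.46, p = 0.0435, adjusted p = 0.227), Vip at 0.01 ± 0.111 (adjusted p = 0.960) and Crh at -0.20 ± 0.137 (interval -0.47 to 0.07, adjusted p = 0.407) in the authors' deposited table.

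Npy was at -0.13 ± 0.108 (adjusted p = 0.526) by the authors' deposited table. Cck was at -0.05 ± 0.115 (adjusted p = 0.842) and Tac1 at 0.15 ± 0.137 (adjusted p = 0.572) by the authors' deposited table. Nts had the smallest adjusted p of the members in this table, 0.112, at 0.22 ± 0.088 (interval 0.05 to 0.40, p = 0.0113) in the authors' deposited table. Its mean normalized count of 14.4 makes this the value that rests on the fewest reads.

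The direct comparison of humanized with Grn+/- mice asks where the mutant groups differ, and it shares its mice with the comparisons above. It called 0 of 10 members, against 0.467% of all 17562 genes. At an unadjusted p under 0.05 Nts alone was counted (1 of 10, against 8.99% of all genes), at 0.17 ± 0.085 (adjusted p = 0.524) by the authors' deposited table. Sst was at 0.19 ± 0.101 (interval -0.01 to 0.39, adjusted p = 0.585), or 114% of the Grn+/- level, and Tac1 at 0.25 ± 0.136 (interval -0.02 to 0.52, adjusted p = 0.597), or 119%, in the authors' deposited table. Cort (0.17 ± 0.126), Crhbp (0.16 ± 0.113) and Tac2 (0.12 ± 0.119) were positive as well, with adjusted p of 0.770, 0.738 and 0.848 in the authors' deposited table.
Npy (-0.18 ± 0.111, adjusted p = 0.687), Crh (-0.15 ± 0.137, adjusted p = 0.836), Cck (-0.13 ± 0.119, adjusted p = 0.836) and Vip (-0.12 ± 0.114, adjusted p = 0.848) were negative in the authors' deposited table. In all, 6 of 10 values were positive, and no member differed between the mutant groups beyond its error after adjustment.

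**Figure D2:**
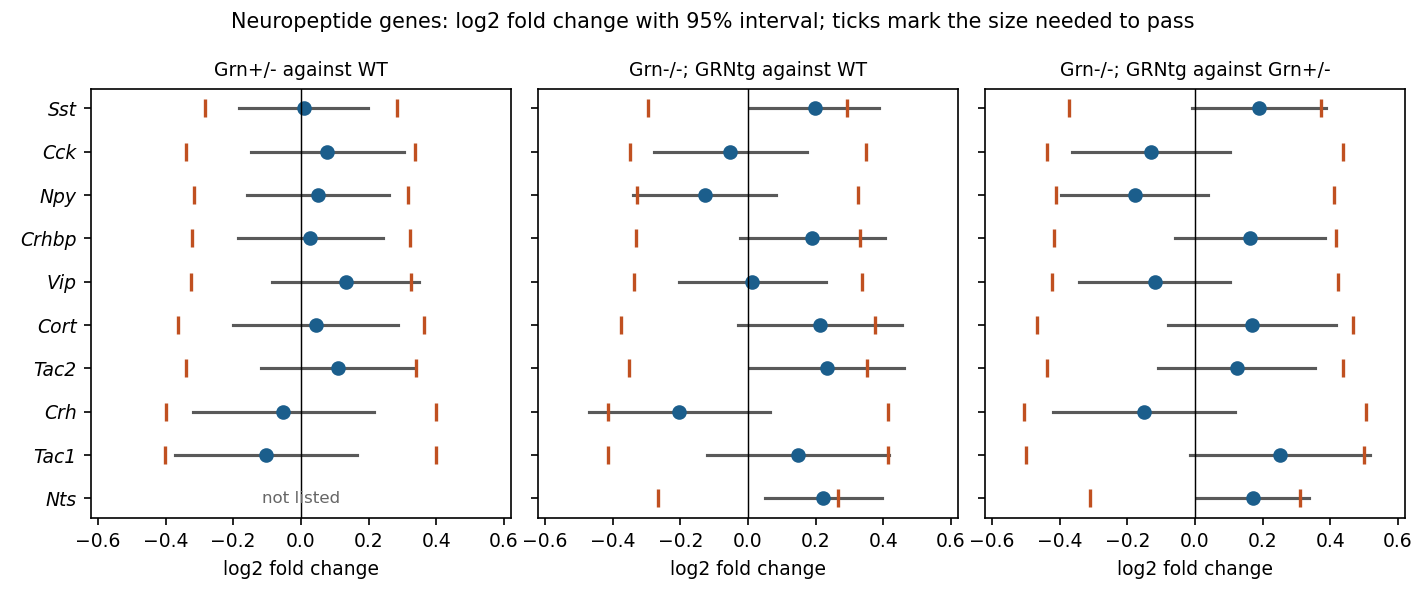
Log2 fold changes of the 10 neuropeptide genes in the 3 comparisons (points) with 95% intervals from the authors' SE (lines), and the size each gene would have needed to be called (ticks). No point reaches its tick, and the values lie between -0.20 and 0.25 over all 3 panels.

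The errors set what could have been seen. To be called against wild type, a member would have needed a deposited log2 fold change between 0.28 and 0.40 in Grn+/- and between 0.27 and 0.41 in humanized mice, depending on its SE. Between the mutant groups the size needed was 0.31 to 0.51. The lowest sizes in the comparisons of humanized mice, 0.27 and 0.31, are those of Nts, the member with the fewest reads. They do not show that a change in Nts was the easiest to see. All the sizes needed are on the scale of the deposited values, and if those were shrunk towards 0 the change in the tissue would have to be larger.

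Most of the neuropeptide genes had a large error for their abundance. In the humanized comparison the SE of Cck was 0.115, where the genes nearest in count had a median SE of 0.069, and 92.0% of those genes had a smaller SE. The same share was 96.5% for Tac1, 93.5% for Crh, 91.5% for Vip, 87.1% for Npy, 83.6% for Sst and 82.1% for Crhbp. Tac2 (54.7%) and Cort (46.3%) were near the middle. Over the 10 members the median was 85.3%, and 70.1% for the receptors of these peptides, 72.1% for interneuron markers, 96.3% for activity-induced genes and 95.5% for striatal markers.

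No SE in any table exceeded 0.138, and those of Tac1 and Crh reached 99.2% and 99.0% of this highest value. The SE did not keep rising as counts fell. In humanized against wild-type mice its median was 0.137 in the bin of genes with a median count of 28.7, and 0.109 in the bin with a median count of 8.13. Whether the fold changes were shrunk towards 0 is not stated. A small value of any member, above all Tac1, Crh or the low-count Nts, is thus no measure of a small change. The percentages of wild type given here carry the same limit. The SE of Nts (0.088) was low for its count, and 1.49% of the genes nearest in count had a smaller one.

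**Figure D3:**
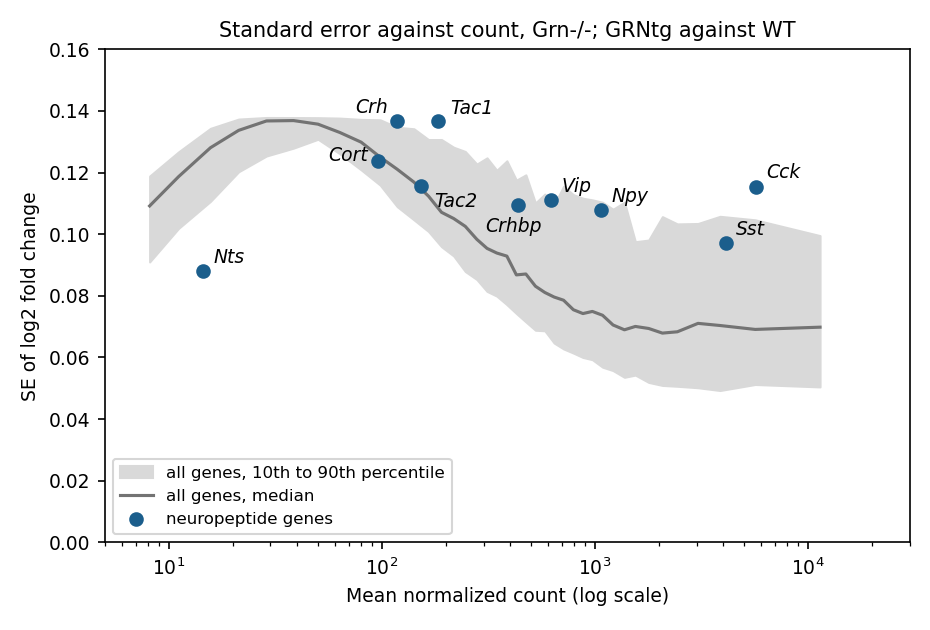
SE of the log2 fold change against mean normalized count (log axis) in humanized against wild-type mice, for the neuropeptide genes (points) and for all genes in bins of like count (line, median, and band, 10th to 90th percentile). Cck, Tac1 and Crh lie above the upper edge of the band, Vip lies at it, and Nts lies below its lower edge.

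Of the receptors for these peptides, Sstr4 and Tacr1 were called, which as a share is near that of all genes against wild type. Sstr4, a somatostatin receptor that also binds cortistatin, fell in Grn+/- to 78.5% of wild type, by 0.35 ± 0.109 on the log2 scale (adjusted p = 0.0291) in the authors' deposited table. It was at 0.10 ± 0.108 (adjusted p = 0.651) in humanized mice against wild type, and higher in humanized than in Grn+/- mice by 0.45 ± 0.112 (adjusted p = 0.0229) in the authors' deposited tables. Both of its calls use the same Grn+/- mice. Tacr1, the substance P receptor, rose in humanized mice against wild type by 0.38 ± 0.123 (adjusted p = 0.0470) in the authors' deposited table, and was at 0.17 ± 0.122 (adjusted p = 0.442) in Grn+/-. Its call ended (adjusted p = 0.0503) when fold changes were centred on the median of all genes.

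No other receptor was called. In Grn+/- 1 of 15 listed receptors was called, in humanized mice 1 of 18, and between the mutant groups 1 of 20, beside 6.80%, 4.87% and 0.467% of all genes. The median log2 fold changes of the receptors were 0.02, 0.12 and 0.07 in these comparisons. Among somatostatin receptors, Sstr1 was at 0.28 ± 0.124 (adjusted p = 0.174) and Sstr2 at 0.09 ± 0.118 (adjusted p = 0.723) in humanized mice, and Sstr3 at 0.29 ± 0.113 (adjusted p = 0.104) in Grn+/-, in the authors' deposited tables. Npy2r, a presynaptic neuropeptide Y receptor, was at 0.42 ± 0.134 (adjusted p = 0.149) and Ntsr1, a neurotensin receptor of deep-layer pyramidal cells, at 0.35 ± 0.138 (adjusted p = 0.348) in humanized against Grn+/- mice in the authors' deposited table.
Cckbr, the cholecystokinin receptor of the cortex, was at -0.04 ± 0.098 (adjusted p = 0.873), Crhr1 at -0.01 ± 0.118 (adjusted p = 0.968), Vipr1 at -0.14 ± 0.094 (adjusted p = 0.390) and Npy1r at 0.11 ± 0.097 (adjusted p = 0.566) in humanized mice against wild type in the authors' deposited table. Sort1, which binds neurotensin and also takes up progranulin, was at 0.06 ± 0.060 (adjusted p = 0.613) in Grn+/- and 0.03 ± 0.060 (adjusted p = 0.809) in humanized mice in the authors' deposited tables.

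Of 16 genes that cut, store and release peptides, 2 rose and 1 fell in Grn+/-, 2 rose in humanized mice, and 0 passed between the mutant groups, where 1 had an unadjusted p under 0.05. Of all genes 6.80%, 4.87% and 0.467% were called in these comparisons, and 8.99% had an unadjusted p under 0.05 in the last. Pcsk1, a protease that cuts prohormones in dense-core vesicles, fell in Grn+/- to 69.0% of wild type, by 0.53 ± 0.120 on the log2 scale (adjusted p = 0.000835) in the authors' deposited table, and was at -0.24 ± 0.120 (adjusted p = 0.234) in humanized mice. Its partner protease Pcsk2 was at 0.24 ± 0.086 (adjusted p = 0.0619) in Grn+/- in the authors' deposited table. Chgb, a granin that helps form these vesicles, rose in Grn+/- by 0.20 ± 0.053 (adjusted p = 0.00781) and in humanized mice by 0.21 ± 0.053 (adjusted p = 0.00738), and these comparisons in the authors' deposited tables share the wild-type mice.
Chga, its relative, rose in Grn+/- by 0.25 ± 0.081 (adjusted p = 0.0318) and was at 0.22 ± 0.081 (adjusted p = 0.0831) in humanized mice in the authors' deposited tables. Ptprn2, a vesicle membrane protein, rose in humanized mice by 0.33 ± 0.105 (adjusted p = 0.0437) in the authors' deposited table. Cpe, which trims the cut peptides and is the most abundant of these genes at 14653 per kb, was at 0.02 ± 0.080 in Grn+/- and 0.10 ± 0.080 in humanized mice, with adjusted p of 0.924 and 0.476 in the authors' deposited tables. Whether the peptide genes and these genes differ in how often they change was not tested.

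These calls rest on the spread the authors' model assigns. When the Wald statistics were divided by their robust spread over all genes (1.496 in Grn+/- and 1.56 in humanized mice against wild type, 1.10 between the mutant groups), none of the receptor and processing genes stayed called, with adjusted p from 0.0985 for Sstr4 between the mutant groups to 0.990 for Tacr1. Of the called genes of all lists around the peptides, the same division kept 0 of 20 in Grn+/-, 2 of 28 in humanized mice against wild type and 3 of 7 between the mutant groups.

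Of 26 listed other markers of interneurons 0 rose and 2 fell in Grn+/-, of 27 listed 1 fell in humanized mice, and 0 of 27 passed between the mutant groups, where 3 had an unadjusted p under 0.05. The shares against wild type are near those of all genes (6.80% and 4.87%). Between the mutant groups 0.467% of all genes were called, and 8.99% had an unadjusted p under 0.05. The median log2 fold changes were 0.06, 0.04 and 0.02. Sox6, a transcription factor of somatostatin and parvalbumin interneurons that is also expressed in oligodendrocyte precursors, fell by 0.31 ± 0.087 (adjusted p = 0.0138) in Grn+/- and fell by 0.30 ± 0.087 (adjusted p = 0.0197) in humanized mice in the authors' deposited tables, which share the wild-type mice. Erbb4, a neuregulin receptor of interneurons, fell by 0.44 ± 0.130 (adjusted p = 0.0176) in Grn+/- in the authors' deposited table.
Gad1 was at 0.20 ± 0.078 (adjusted p = 0.0881) in Grn+/- and 0.09 ± 0.078 (adjusted p = 0.521) in humanized mice in the authors' deposited tables. Nos1 and Reln, which some somatostatin interneurons and also other cells carry, were at 0.36 ± 0.135 (adjusted p = 0.278) and 0.35 ± 0.138 (adjusted p = 0.324) in humanized against Grn+/- mice in the authors' deposited table.

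Markers of neighbouring tissue did not share a sign in the comparison of the mutant groups, where Tac1 and Sst had positive values. In humanized against Grn+/- mice 14 of 18 striatal markers were positive, with a median log2 fold change of 0.14 against 0.00137 over all genes, and 0 were called, 3 having an unadjusted p under 0.05. Of all genes 0.467% were called in this comparison, and 8.99% had an unadjusted p under 0.05. Drd1, the dopamine receptor of the striatal neurons that make substance P, was at 0.25 ± 0.136 (adjusted p = 0.587) beside Tac1 at 0.25 ± 0.136 in the authors' deposited table. In Grn+/- against wild type Drd1 was at -0.07 ± 0.137 and Tac1 at -0.10 ± 0.137, and in humanized against wild-type mice they were at 0.19 ± 0.137 and 0.15 ± 0.137, in the authors' deposited tables. The comparisons share mice and their fold changes add up, so these pairs of values are not separate observations. Drd1 was set beside Tac1 after its values were seen, and other striatal markers had the opposite sign. For humanized against Grn+/- mice the authors' deposited table held 4 negative striatal markers. Among them were Scn4b (-0.20 ± 0.127) and Foxp1 (-0.15 ± 0.110). Whether Tac1 follows the striatal markers was not tested. All 18 striatal markers were listed, between 1.64 and 893 per kb, and the defining markers Drd1, Drd2 and Adora2a had 50.2, 26.1 and 52.8 per kb. The hippocampal markers had a median of 0.16 with 7 of 10 positive, and 3 were higher and 2 lower at an unadjusted p under 0.05. Of thalamus markers 4 of 9 were positive (median -0.0032). Only 3 of the 9 choroid plexus markers chosen were measured in this comparison, and 0 of these 3 were positive (median -0.075). In this comparison C1ql2, a gene of the dentate gyrus, was higher by 0.50 ± 0.124 (adjusted p = 0.0187) in the authors' deposited table. The part of the dissection in the values of Tac1, Sst and the other members was not tested.

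Some markers of other cells were called in the same comparisons. Of all genes 6.80% were called in Grn+/-, 4.87% in humanized mice against wild type and 0.467% between the mutant groups. At an unadjusted p under 0.05 these shares were 20.2%, 20.5% and 8.99%. Division by the robust spread kept 0 of 20, 2 of 28 and 3 of 7 of the calls of all lists. In humanized against wild-type mice 4 of 10 endothelial markers fell, among them Slco1c1 by 0.36 ± 0.087 (adjusted p = 0.00304) in the authors' deposited table, with a list median of -0.27. All 10 oligodendrocyte markers were negative there (median -0.22, Ugt8a fell), and 9 of 10 astrocyte markers were (median -0.14, Slc4a4 fell). In Grn+/- these medians were -0.17, -0.14 and -0.13, with 0, 0 and 3 called lower (Gja1, Slc1a2 and Slc4a4). Microglia markers had 0 of 10 called, and 0 at an unadjusted p under 0.05, in each comparison. Of 8 nuclear-retained RNAs 4 fell in Grn+/- (median -0.23) and 1, Malat1, in humanized mice (median -0.14). Of 16 excitatory neuron markers Rorb rose in Grn+/-, Camk2a fell in humanized mice and Etv1 was higher in humanized than in Grn+/- mice, and the call of Rorb (adjusted p = 0.0480) ended on centring (adjusted p = 0.0543). Leptomeningeal markers had 0 called, with 9 of 9, 10 of 10 and 9 of 10 positive values in the 3 comparisons and 1, 4 and 1 at an unadjusted p under 0.05. Thalamus, choroid plexus, and hypothalamus and amygdala markers had 0 called in each comparison, with at most 2 in any of them at an unadjusted p under 0.05. Of 9 choroid plexus markers only 2, 3 and 3 were measured in the 3 comparisons, and of 13 hypothalamus and amygdala markers 4, 4 and 10. The part of these shifts in the values of the neuropeptide genes was not tested.

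Activity-induced genes were lower in the mice whose peptide genes were not called. Of 24 such genes 6 fell in Grn+/- and 16 in humanized mice against wild type, and 4 were lower in humanized than in Grn+/- mice, with 0 higher in each, beside 6.80%, 4.87% and 0.467% of all genes called in either direction. After division by the robust spread none of the 6 in Grn+/- stayed called. Of the calls of all lists, that division kept 2 of 28 in humanized mice against wild type and 3 of 7 between the mutant groups. Trib1 fell in humanized mice by 0.89 ± 0.129 (adjusted p = 2.4e-08), Arc, a synaptic protein, fell by 0.66 ± 0.129 (adjusted p = 0.000109), and Homer1 fell in Grn+/- by 0.51 ± 0.111 (adjusted p = 0.000486), in the authors' deposited tables. Their median log2 fold changes were -0.23, -0.51 and -0.13, against 0.04, 0.17 and 0.14 for the neuropeptide genes. The core of the cAMP response element lay in 77.3% of the promoters of these genes at hand (17 of 22), beside 7 of 9 for the neuropeptide genes. Of the 7 members with the core 0 were called in humanized mice against wild type, as were 0 of all 10 members, beside 4.87% of all genes. No binding to these promoters was measured, and what the core does for these genes was not tested. The difference between the lists was not tested.

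**Figure D4:**
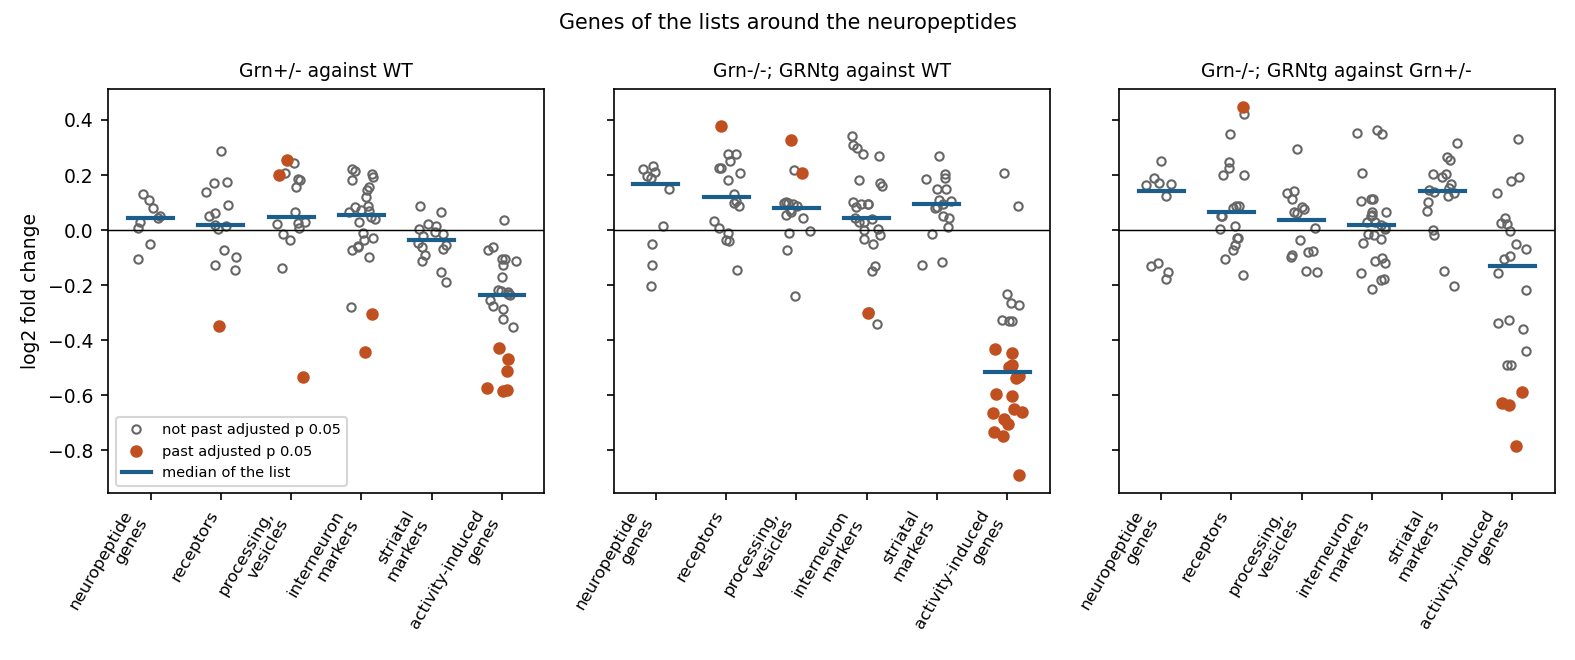
Log2 fold changes of single genes in 6 gene lists (columns) for the 3 comparisons, with called genes filled and the list's median as a bar. The neuropeptide genes hold no filled point, with medians of 0.04, 0.17 and 0.14, and the activity-induced genes hold 6, 16 and 4 filled points below 0.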

How the data were processed

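Libraries of total RNA from the cortex of 13 mice were made with a strand-marking kit, per the labels. The submitters' processing notes name DESeq2 1.34.0, R 4.1.2 and the build mm10, with no role. Which aligner, counter, annotation and strand setting were used: not given in the sources used here. The 3 deposited comparison tables hold, per the file headers, the authors' mean normalized count (a signal over all libraries), the authors' log2 fold change with its SE, the authors' Wald score, and the authors' p-value and adjusted p-value. Division of the deposited columns returned the score, Benjamini-Hochberg adjustment over the rows returned the deposited adjusted p-values, and the fold changes of the tables add up, as a single fit gives. Depth per mouse is not known. Rows that name no gene held 17.0% (no feature) and 0.606% (ambiguous) of the summed mean normalized counts and were left out. The p-values rest on the spread that the authors' model assigns between these mice. The labels do not say that the mice are of separate litters or batches, so whether the p-values cover such differences is not known.

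Intervals of 95% are the fold change ± 1.96 SE. The size needed to be called is the SE times the normal quantile of the largest p called in that table. SEs were compared with those of the 100 genes on either side in mean count. Gene positions and lengths came from the GENCODE M21 annotation (GRCm38, equal to mm10), and the length is the union of a gene's exons. Promoters are from RefSeq. The adjustment procedures were tested on simulated data. All 10 members are named. From the lists around them, called genes, and otherwise the 3 with the smallest p, were to be named. Cpe, Drd1, Drd2, Scn4b, Foxp1, Ppp1r1b, Slc17a6, Slc17a7, Tbr1 and the hypothalamic peptide genes were named outside this rule, after their values were seen. Receptors could all be named. The 17 lists held 241 entries, of which 227 matched. The members and lists were chosen with earlier results of these data known. Other settings tried were the genes adjusted over, Benjamini-Yekutieli adjustment, division by the robust spread, centring, a minimum fold change, a looser threshold and another gene length. Computation used scipy 1.17.1, pandas 2.3.3 and numpy 2.4.6 under Python 3.11.15.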

Additional observations from a re-analysis of the deposited data

How the results depend on the processing

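The count of neuropeptide genes called was 0 in each of the 3 comparisons under all 7 other settings. In all 3 tables together their smallest adjusted p was 0.112 (Nts, humanized against wild type) as deposited. It was 0.209 (Sst) there over genes listed in all 3 tables and 0.196 (Sst) over genes with a mean normalized count of at least 100, both of which leave out Nts. The number of all genes called moved more. In Grn+/- it was 917 as deposited, 263 with Benjamini-Yekutieli adjustment, 3 with the robust spread, 499 where the fold change also had to reach 0.3 on the log2 scale and 1423 at adjusted p under 0.1. In humanized against wild-type mice it was 728, 177, 9, 454 and 1396 in the same order. Between the mutant groups it was 82 as deposited, 43 over genes in all 3 tables, 36 with the count minimum, 24 with Benjamini-Yekutieli, 33 with the robust spread and 159 at adjusted p under 0.1. No paired analysis was possible because the tables hold no value per mouse, and for the same reason no mouse could be left out in turn. Depth per mouse is unknown, and precision rests on the SE in the tables.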

Other observations

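Other neuropeptide precursors gave 0 calls in each comparison, among 7, 9 and 16 listed genes, with 1, 2 and 1 at an unadjusted p under 0.05. Of all genes 6.80%, 4.87% and 0.467% were called, and 20.2%, 20.5% and 8.99% had an unadjusted p under 0.05. Trh, the precursor of thyrotropin-releasing hormone, was at 0.32 ± 0.115 (adjusted p = 0.0739) in humanized mice against wild type and 0.30 ± 0.111 (adjusted p = 0.279) against Grn+/- in the authors' deposited tables, at a mean normalized count of 33.6. Cartpt, the precursor of the CART peptides, was at 0.31 ± 0.134 (adjusted p = 0.149) in Grn+/- and 0.08 ± 0.134 (adjusted p = 0.766) in humanized mice against wild type in the authors' deposited tables. Peptide genes of hypothalamic cells, Hcrt, Pmch, Oxt, Avp and Agrp, had mean normalized counts between 0.997 and 6.55.

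The core of the cAMP response element lay in 50% (8 of 16) of the promoters of the processing and vesicle genes, in 42.1% (8 of 19) of those of other neuropeptide precursors, in 35.3% (6 of 17) of those of the receptors, in 15.6% (5 of 32) of those of interneuron markers and in 5.56% (1 of 18) of those of excitatory neuron markers. These shares describe letters in the promoter window and no binding.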
